A study of Drosophila melanogaster with 8 samples.

Results

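The dpr, DIP, beat and side genes encode cell-surface and secreted proteins of the immunoglobulin superfamily that neurons of Drosophila melanogaster use to recognise one another. Their RNA was followed here in adult heads after neuronal knockdown of FBXO11, an F-box protein that selects substrates for a cullin-RING ubiquitin ligase. Members were taken by symbol alone, as every row of the count table whose FlyBase identifier maps to dpr plus a number, to a name starting with DIP- or beat-, or to side or a name starting with side-. This rule, which used no expression value, found 54 of the 17676 genes in the table, with 21 dpr, 11 DIP, 14 beat and 8 side genes. Of these, 53 passed the filter on low counts and were tested, among 11081 genes in all, and the remaining member, beat-IIIa, had 0 counts in every library.

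Members of the dpr family (defective proboscis extension response, after the salt-aversion phenotype of dpr1) bind members of the DIP family (Dpr-interacting proteins), and a given neuron type displays a particular set of either. These contacts are known for matching synaptic partners, and in some neuron types for their survival, in the optic lobe and at the neuromuscular junction. The beat proteins (beaten path) include receptors on motor axons that detach from one another when they meet side (sidestep) on their targets, and further beat proteins bind further members of the side family.

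The series holds 8 bulk RNA-seq libraries of adult heads, all given as batch 1. The RNA1 knockdown has 3 libraries with the genotype entry KD1, the RNA2 knockdown has 2 libraries whose titles match but whose genotype entries read KD2 and KD3, and the control has 3 libraries entered as wild type for FBXO11. The titles of all 8 libraries, controls included, carry the words neuronal knockdown. The sources used here do not give the neuronal driver, the hairpin lines, or the sex and age of the flies. The genotype entries of the knockdown and control libraries differ, so the knockdown and a difference of genetic background cannot be told apart. The labels do not say whether the libraries of a group come from separate flies, so p-values reflect the spread among these libraries only, which may be technical.

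Total counts per library were 36809556, 36132003 and 32434805 in RNA1, 35832058 and 33369175 in RNA2, and 38933684, 41589222 and 39051500 in control. FBXO11 stood at 39.7, 42.5 and 37.5 CPM (TMM-scaled read counts relative to library size) in RNA1 and at 44.8 and 52.7 CPM in RNA2, against 108.0, 102.9 and 97.4 CPM in control. Its log2 difference was -1.37 ± 0.09 (SE) in RNA1 and -1.08 ± 0.10 in RNA2, with edgeR FDRs of 4.9e-05 and 0.00054. Over all genes tested, 555 were higher and 582 lower than control in RNA1 at FDR under 0.05, and 733 were higher and 487 lower when libraries were scaled by their totals in place of TMM. In RNA2, 195 genes were higher and 224 lower than control, and 242 were higher and 186 lower with library totals. Without RNA2 replicate 1 the RNA2 counts were 59 higher and 56 lower, and without control replicate 2 the RNA1 counts were 233 higher and 243 lower. Markers of head tissue were present in every library, with 6 photoreceptor markers, ninaE among them, summing to 53730 to 68430 CPM.

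The members together held between 0.346% and 0.395% of all counts in each library. Apart from DIP-iota, which had few counts, each tested member had between 590 and 12104 counts in every library. Levels can be set side by side between genes only per length, and for this RPKM was used, CPM divided by the kilobases of all annotated exons of the gene. The orders of abundance below are by RPKM and so depend on the annotated exon length. dpr7, for example, had a control mean of 136.4 CPM over 1515 exon bases, against 298.1 CPM over 4704 bases for dpr12. The median over members, of the mean RPKM of the 8 libraries, was 20.3 for dpr, 9.002 for DIP, 16.5 for beat and 19.9 for side, where the median of all tested genes was 11.6. The median dpr gene stood at percentile 66.4 of tested genes and the median DIP gene at percentile 43.9. A low level in a whole head does not say whether a few cells hold much of an RNA or many cells hold little, and, in the comparisons that follow, fewer cells of a type and less RNA per cell cannot be told apart.

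Among the dpr genes, dpr7 was the most abundant, at 101.6, 92.5 and 81.2 RPKM in RNA1 and 82.1 and 87.5 RPKM in RNA2, against 94.3, 89.0 and 86.7 RPKM in control. dpr12, the partner of DIP-delta that is known for its role in wiring the mushroom body gamma lobe, stood next with 68.5, 65.0 and 56.2 RPKM in RNA1 and 62.1 and 64.7 RPKM in RNA2, against 65.5, 61.7 and 62.9 RPKM in control. The libraries of dpr7 lay above all libraries of dpr12, and within each gene the knockdown and control libraries overlapped. dpr21 followed with 58.1, 47.6 and 41.2 RPKM in RNA1 and 47.2 and 48.3 RPKM in RNA2, against 41.9, 39.3 and 46.2 RPKM in control. Both RNA2 libraries of dpr21 lay above the controls, whereas RNA1 replicate 3 lay among them. At the other end stood dpr2 at 7.59 RPKM, dpr16 at 7.11 RPKM and dpr6, a ligand of DIP-alpha, at 5.35 RPKM as means of the 8 libraries.

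In the DIP family DIP-epsilon had the highest mean level, 24.2 RPKM. DIP-gamma, the receptor that pairs with dpr11 between R7 photoreceptors and their targets, had 17.7, 17.7 and 18.5 RPKM in RNA1 and 20.2 and 19.7 RPKM in RNA2, against 18.5, 18.5 and 20.4 RPKM in control. DIP-theta had 13.4, 12.9 and 12.3 RPKM in RNA1 and 12.1 and 13.7 RPKM in RNA2, against 14.3, 13.4 and 15.3 RPKM in control. Both genes had overlapping knockdown and control libraries, and DIP-gamma lay above DIP-theta in every library. Mean levels then ran through DIP-zeta (11.4 RPKM), DIP-kappa (10.8 RPKM), DIP-eta (9.002 RPKM), DIP-lambda (8.78 RPKM), DIP-beta (8.06 RPKM) and DIP-delta (7.49 RPKM), neighbours in this order whose library ranges overlapped. DIP-alpha, known from the survival of medulla interneurons, stood clearly below them at 3.17 RPKM. DIP-iota was at 0.236 RPKM, with 8 to 16 counts per library, so little can be read from its fold changes.

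Of the beat genes, beat-IIa was the most abundant, with 38.6, 38.0 and 34.8 RPKM in RNA1 and 33.8 and 36.1 RPKM in RNA2, against 37.5, 36.1 and 38.7 RPKM in control. beat-IIIb had 24.3, 23.5 and 19.3 RPKM in RNA1 and 20.3 and 22.9 RPKM in RNA2, against 25.2, 22.0 and 22.9 RPKM in control. The knockdown and control libraries of both genes overlapped, and beat-IIa exceeded beat-IIIb in all of them. beat-VII had 22.8, 21.7 and 18.1 RPKM in RNA1 and 18.4 and 21.8 RPKM in RNA2, against 22.7, 19.5 and 20.3 RPKM in control, again with overlap. beat-Ia, the founding motor-axon receptor, averaged 11.7 RPKM, and beat-Ic was lowest of the tested beat genes at 8.96 RPKM. No read was assigned to beat-IIIa, where 3 counts would have been 0.0721 to 0.0925 CPM. All 4457 of its annotated exon bases are also annotated on the same strand to CG34106, which was at 0 too, so its expression cannot be read from this table.

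The side genes spanned the narrowest range. side-VII had 27.1, 26.2 and 22.9 RPKM in RNA1 and 25.4 and 27.1 RPKM in RNA2, against 29.1, 26.4 and 24.3 RPKM in control. side-IV, a partner of beat-IIa and beat-IIb, had 26.3, 26.1 and 25.5 RPKM in RNA1 and 25.3 and 25.8 RPKM in RNA2, against 24.3, 22.9 and 25.9 RPKM in control. Each had overlapping knockdown and control libraries, and the ranges of both genes also overlapped one another. Of the 5123 exon bases of side-IV, 3457 are shared with antisense RNAs on the opposite strand, and the sources used here do not give the strand setting of the counting. side itself was the least abundant, at a mean of 9.13 RPKM, below all libraries of side-III at a mean of 13.5 RPKM. Over the 4 families, 38 of 50 pairs of neighbours in the order of levels had overlapping library ranges.

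**Figure D1:**
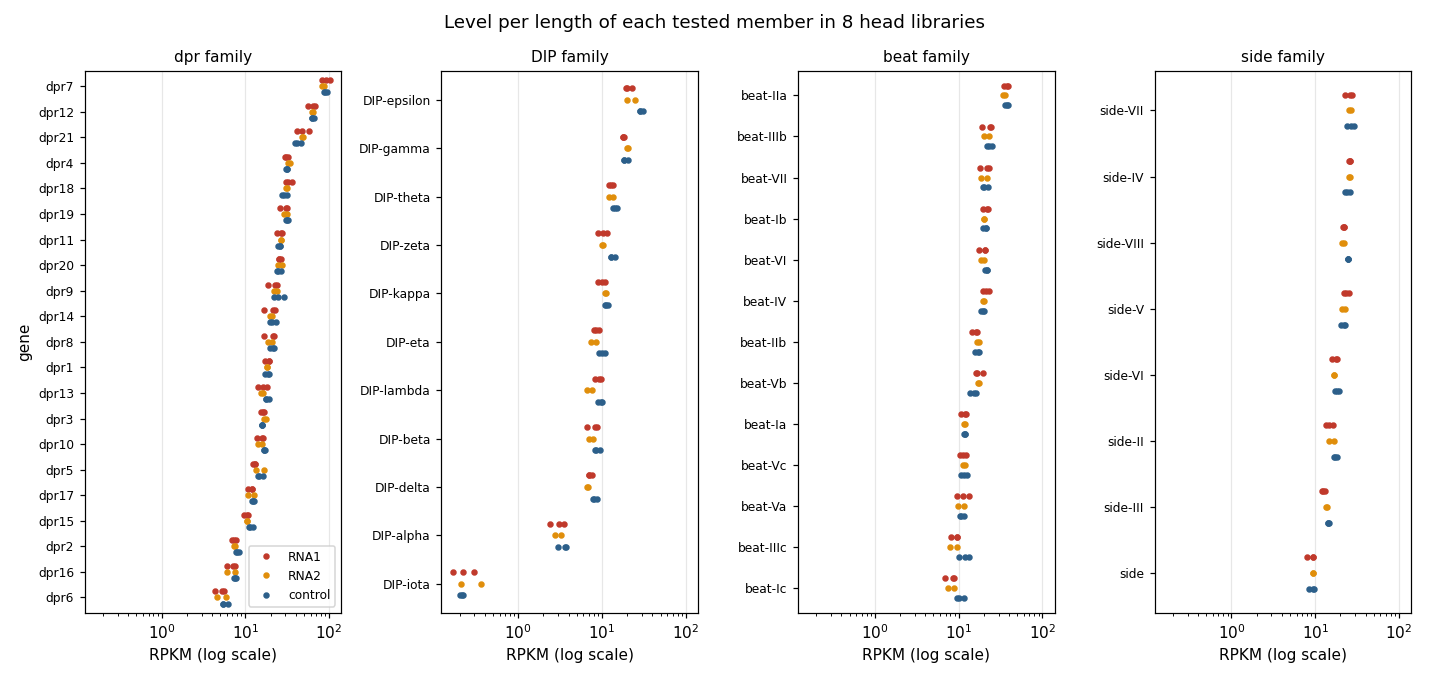
Level of each of the 53 tested members in every library, in RPKM on a log axis, with 1 panel per family and 1 point per library coloured by group (RNA1, RNA2, control). dpr7 leads the dpr panel at a mean of 89.4 RPKM and DIP-iota closes the DIP panel at 0.236 RPKM, and for most members the points of the 3 groups lie over one another.

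Levels of known binding partners could be set side by side as means of the 8 libraries. Among 20 receptor and ligand pairs taken from textbook knowledge, the dpr or side gene had the higher mean RPKM in 12. The widest gap was between DIP-delta at 7.49 RPKM and dpr12 at 63.3 RPKM, a ratio of 8.45. DIP-kappa at 10.8 RPKM and dpr7 at 89.4 RPKM followed, with a ratio of 8.31. DIP-alpha at 3.17 RPKM was set against 5.35 RPKM for dpr6 and 15.8 RPKM for dpr10. In the opposite sense, DIP-gamma at 18.9 RPKM exceeded dpr15, dpr16 and dpr17, which lay between 7.11 and 11.9 RPKM, and fell short of dpr11 at 26.0 RPKM. Among beat receptors, beat-Ib at 20.6 RPKM and beat-Ia at 11.7 RPKM both exceeded their ligand side at 9.13 RPKM. beat-Va and beat-Vc, at 11.01 and 11.5 RPKM, were below their ligand side-VI at 17.5 RPKM. beat-Vb was close to side-VI and its place depended on the group, with means of 17.4 RPKM for beat-Vb and 17.2 RPKM for side-VI in RNA1 and of 17.1 and 16.8 RPKM in RNA2, against 15.03 and 18.3 RPKM in control. These ratios are over whole heads and depend on the annotated exon length of each gene.

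In RNA1 against control, the RNA of 2 receptors fell and that of the other 51 tested members did not pass the test. edgeR's quasi-likelihood test at FDR under 0.05 gave 2 of 53 members lower, a share of 3.77%, where 5.25% of all tested genes were lower. It gave 0 members higher, where 5.01% of all tested genes were higher. At an unadjusted edgeR p under 0.05, 11 members (20.8%) were lower, where 13.1% of all genes were. At that threshold 0 members were higher, where 13.7% of all genes were. DESeq2 gave 4 members lower (7.55%, against 8.27% of the genes it tested) and 0 higher (against 7.13%). limma-voom gave 2 lower (3.77%, against 5.38%) and 0 higher (against 4.87%). At FDR under 0.05 the share of members called lower was near that of the whole table, and 0 were called higher. For 48 of the 53 members the 95% interval of the fold change lay within 1.5-fold in both directions, the others being DIP-epsilon, DIP-zeta, DIP-iota, beat-IIIc and beat-Ic.

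DIP-epsilon, a receptor that binds several dpr proteins, dpr13 among them, lies on chromosome 2L from 6377771 to 6411326 (minus strand, BDGP6). It had 62.7, 71.3 and 61.4 CPM in RNA1 and 62.7 and 77.7 CPM in RNA2, against 97.0, 89.5 and 88.4 CPM in control. Every knockdown library lay below every control, and RNA2 replicate 2 came nearest to them. Means were 65.1 ± 5.41 CPM in RNA1 (SD, n = 3) and 70.2 ± 10.6 CPM in RNA2 (n = 2), against 91.7 ± 4.68 CPM in control (n = 3). The log2 difference from control was -0.49 ± 0.10 (SE) in RNA1, with a 95% interval of -0.71 to -0.28 and an edgeR FDR of 0.0131. Without control replicate 1 it was -0.45 with an FDR of 0.0566, and in every other alternative run it passed. In RNA2 the log2 difference was -0.38 ± 0.11 with an FDR of 0.0909, which passed with DESeq2 (FDR 0.0373). The RNA2 value depended on the library, at -0.55 (FDR 0.0366) without RNA2 replicate 2 and -0.24 (FDR 0.523) without RNA2 replicate 1.

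DIP-zeta, which also binds dpr13, lies on chromosome 2L from 9051631 to 9071164 (minus strand). It had 36.4, 41.3 and 32.3 CPM in RNA1 and 35.5 and 36.5 CPM in RNA2, against 51.0, 45.4 and 46.3 CPM in control. As with DIP-epsilon, all 5 knockdown libraries lay below all 3 controls. Means were 36.7 ± 4.55 CPM in RNA1 (SD, n = 3) and 36.0 ± 0.662 CPM in RNA2 (n = 2), against 47.5 ± 3.04 CPM in control (n = 3). The log2 difference was -0.38 ± 0.10 in RNA1, with a 95% interval of -0.59 to -0.16 and an edgeR FDR of 0.0396, and -0.40 ± 0.11 in RNA2 with an FDR of 0.0832. The RNA1 call was close to the threshold. It was lost with library totals in place of TMM (FDR 0.0502) and without any control replicate (FDR 0.143 without replicate 1, 0.0855 without replicate 2 and 0.0884 without replicate 3). It was also lost without RNA1 replicate 1 (0.0796), RNA1 replicate 3 (0.0877) or RNA2 replicate 2 (0.0513). In RNA2, DIP-zeta passed with DESeq2 at an FDR of 0.0294. The gene shares 133 exon bases with the antisense lncRNA:CR44483, which had 0 counts in every library.

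The other DIP genes did not pass in RNA1. DIP-delta, the receptor of dpr12, had 33.6, 36.6 and 34.0 CPM in RNA1 and 32.2 and 32.9 CPM in RNA2, against 42.5, 38.6 and 37.5 CPM in control. Its 5 knockdown libraries lay below the controls, by a small margin, with log2 differences of -0.19 ± 0.08 (edgeR FDR 0.151) in RNA1 and -0.28 ± 0.09 (FDR 0.114) in RNA2. DIP-eta showed the same arrangement, with log2 differences of -0.23 ± 0.09 (FDR 0.152) in RNA1 and -0.33 ± 0.10 (FDR 0.126) in RNA2. DIP-kappa had 36.3, 43.0 and 39.9 CPM in RNA1 and 43.1 and 44.9 CPM in RNA2, against 46.8, 44.8 and 43.9 CPM in control. Its RNA1 libraries lay below the controls and its RNA2 libraries overlapped them, with log2 differences of -0.19 ± 0.08 (FDR 0.1697) in RNA1 and -0.04 ± 0.09 (FDR 0.860) in RNA2. DIP-gamma differed from control by -0.09 ± 0.07 in RNA1 and by 0.06 ± 0.08 in RNA2 on the log2 scale.

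**Figure D2:**
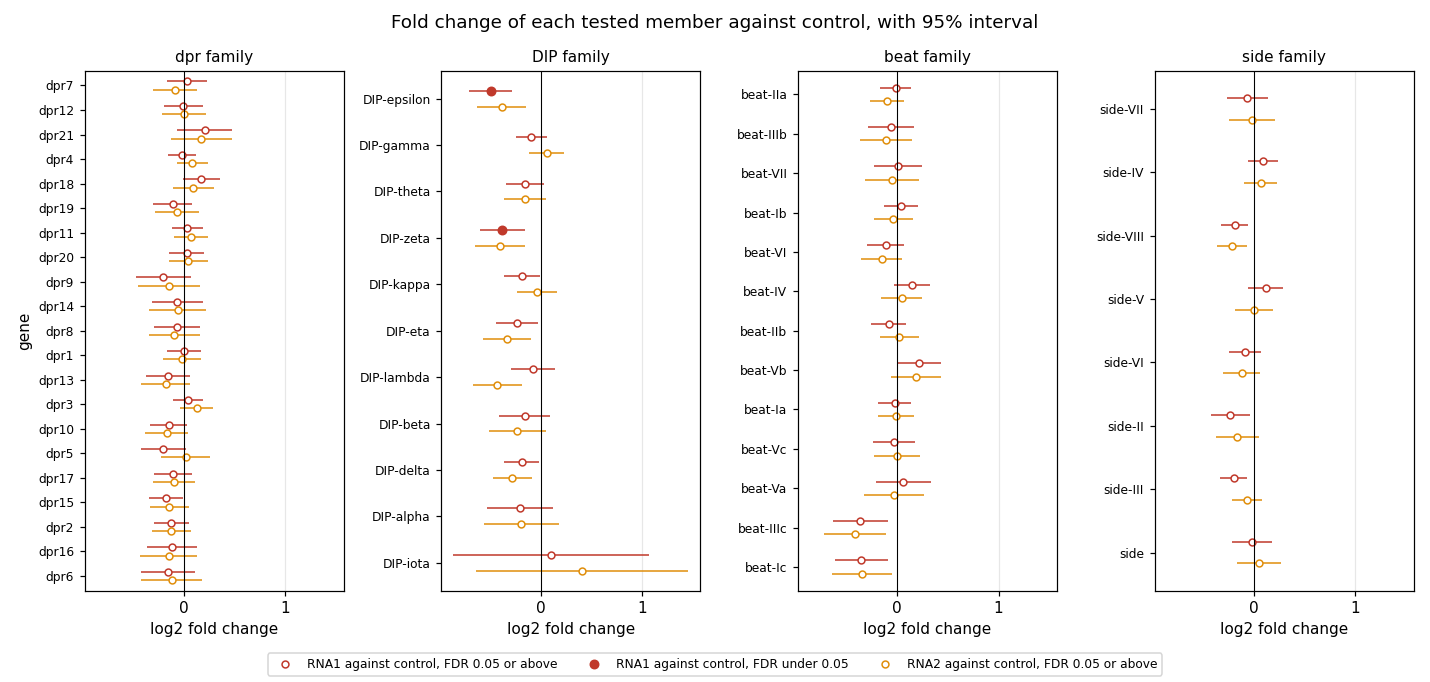
Log2 fold change of each tested member against control, with its 95% interval, for RNA1 and for RNA2, grouped by family, where filled points passed an edgeR FDR under 0.05. The filled points are DIP-epsilon (-0.49) and DIP-zeta (-0.38) in RNA1, and the wide intervals belong to DIP-iota, which had 8 to 16 counts per library.

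No dpr gene passed in either knockdown. In RNA1 their log2 differences from control ran from -0.20 (dpr5) to 0.21 (dpr21), 14 of 21 being negative, and in RNA2 from -0.18 (dpr13) to 0.17 (dpr21), again with 14 negative. Of the 3 most abundant, dpr12 differed by -0.0040 ± 0.09 on the log2 scale in RNA1, with a 95% interval of -0.20 to 0.19, and by -0.00041 ± 0.10 in RNA2. dpr7 differed by 0.03 ± 0.09 in RNA1 and by -0.09 ± 0.10 in RNA2. dpr21 had the largest positive values of the family, 0.21 ± 0.12 in RNA1 and 0.17 ± 0.13 in RNA2. For all 21 dpr genes the interval lay within 1.5-fold in both knockdowns. dpr13, the ligand named above for the receptors that fell, differed by -0.15 ± 0.10 in RNA1 and by -0.18 ± 0.11 in RNA2, with edgeR FDRs of 0.340 and 0.406.

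Among beat receptors, the lowest values relative to control were those of beat-Ic and beat-IIIc. beat-Ic had 41.9, 43.8 and 34.0 CPM in RNA1 and 37.3 and 43.1 CPM in RNA2, against 57.0, 49.2 and 46.8 CPM in control. All knockdown libraries lay below the controls, but control replicate 1 stood apart from the other two, and the log2 differences of -0.35 ± 0.12 in RNA1 and -0.34 ± 0.13 in RNA2 had edgeR FDRs of 0.0843 and 0.197. beat-IIIc had 37.6, 37.3 and 31.7 CPM in RNA1 and 31.2 and 37.2 CPM in RNA2, against 51.6, 46.2 and 39.2 CPM in control. Its groups also did not overlap, and its log2 differences were -0.36 ± 0.12 (FDR 0.0872) in RNA1 and -0.42 ± 0.14 (FDR 0.136) in RNA2. beat-Vb, a partner of side-VI, was the only member whose 5 knockdown libraries all lay above the 3 controls. It had 36.8, 31.2 and 30.8 CPM in RNA1 and 31.9 and 32.8 CPM in RNA2, against 29.1, 25.6 and 30.6 CPM in control, and its log2 difference of 0.21 ± 0.10 in RNA1 had an FDR of 0.199.

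Of the side ligands, side-VIII had the steadiest controls. It had 118.4, 120.1 and 121.5 CPM in RNA1 and 121.6 and 114.5 CPM in RNA2, against 136.6, 136.7 and 136.9 CPM in control. The groups were clearly separate, although the difference was small, with log2 values of -0.19 ± 0.06 (edgeR FDR 0.0714) in RNA1 and -0.21 ± 0.07 (FDR 0.118) in RNA2. With DESeq2 it passed in both, at FDRs of 0.0290 and 0.0446. side-III had 102.9, 110.7 and 104.8 CPM in RNA1 and 117.2 and 115.1 CPM in RNA2, against 124.3, 120.8 and 120.0 CPM in control. All its knockdown libraries lay below the controls, RNA2 closer to them than RNA1, with log2 differences of -0.20 ± 0.06 (FDR 0.0669, and 0.0376 with DESeq2) in RNA1 and -0.07 ± 0.07 (FDR 0.633) in RNA2. side-II, the ligand of beat-VI, had 72.3, 85.8 and 77.9 CPM in RNA1 and 88.2 and 76.8 CPM in RNA2, against 96.7, 88.8 and 91.5 CPM in control, which likewise did not overlap. Its log2 differences were -0.23 ± 0.08 (FDR 0.117) in RNA1 and -0.16 ± 0.10 (FDR 0.392) in RNA2.

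**Figure D3:**
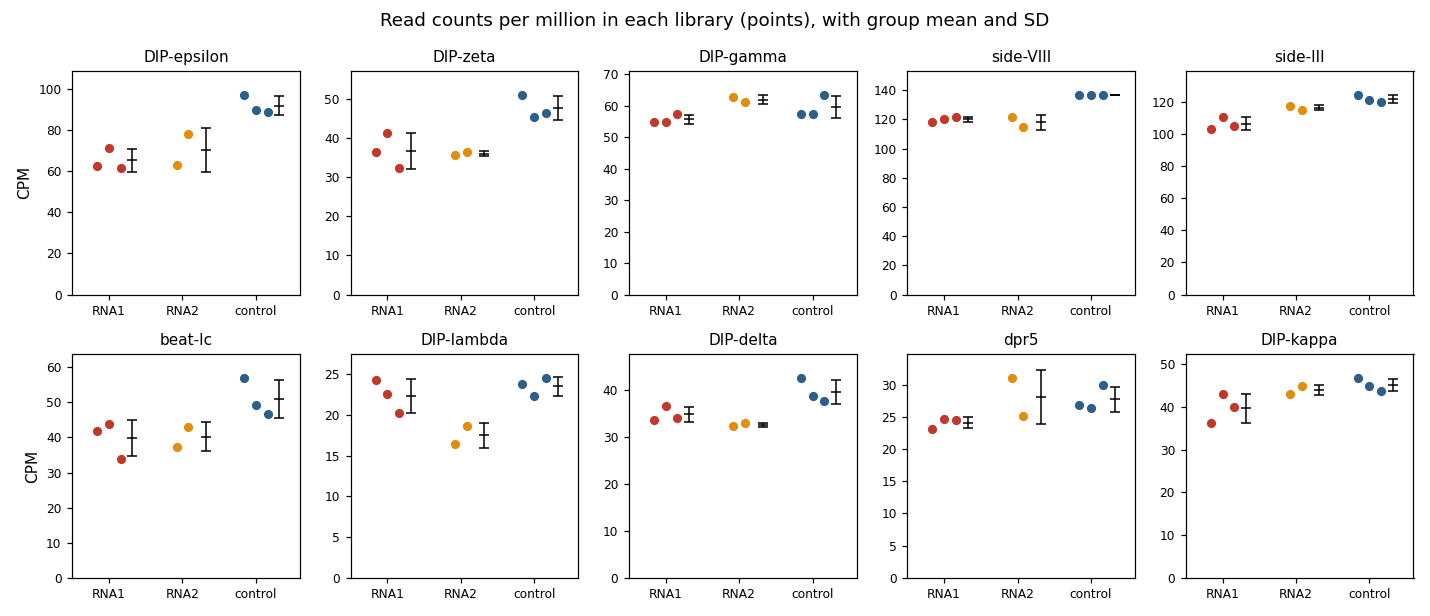
CPM in each library, with group means and SD, for 10 members in the order RNA1, RNA2, control: DIP-epsilon, DIP-zeta, DIP-gamma, side-VIII, side-III, beat-Ic, DIP-lambda, DIP-delta, dpr5 and DIP-kappa. DIP-epsilon and DIP-zeta are lower in all 5 knockdown libraries, at most 77.7 and 41.3 CPM, than in the controls, at least 88.4 and 45.4 CPM. The RNA2 libraries of DIP-lambda lie below all its other libraries, and its RNA1 libraries overlap control.

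In RNA2 against control, edgeR called 0 members lower, where 2.02% of all genes were lower, and 0 higher, where 1.76% were higher. At an unadjusted p under 0.05, 8 members (15.1%) were lower, against 9.86% of all genes, and 0 higher, against 8.58%. DESeq2 gave 4 members lower (7.55%, against 4.66% of the genes it tested), namely DIP-lambda, DIP-epsilon, DIP-zeta and side-VIII. It gave 0 higher (against 3.04%), whereas limma-voom gave 0 in either direction (against 2.07% and 1.67%). The comparisons of RNA1 and of RNA2 share the 3 control libraries, so a member that is low in both does not give independent counts. The lowest p belonged to DIP-lambda, a receptor gene on chromosome 2R from 326768 to 705848 (plus strand) and the longest of the members. It had 24.3, 22.6 and 20.2 CPM in RNA1 and 16.4 and 18.6 CPM in RNA2, against 23.8, 22.3 and 24.6 CPM in control. The RNA2 libraries lay below all others, and RNA1 overlapped control. Its log2 difference from control was -0.43 ± 0.11 in RNA2 (edgeR FDR 0.0641, with DESeq2 0.0177) and -0.07 ± 0.09 in RNA1 (FDR 0.658). Without RNA1 replicate 1, a library in neither group of this comparison, the RNA2 FDR was 0.0440. The filter, scaling, shared spread and FDR were all computed anew in that run. Over all genes it called 264 higher and 290 lower in RNA2, against 195 and 224 with all libraries.

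In RNA2 against RNA1, which uses no control library, 0 members were called by edgeR in either direction, where 0.0902% of all genes were lower and 0.19% higher. DESeq2 also gave 0 (0.733% of the genes it tested were lower and 0.584% higher), as did limma-voom (0.0632% and 0.19%). At an unadjusted p under 0.05, 1 member (1.89%) was lower, DIP-lambda, against 3.77% of all genes, and 0 were higher, against 3.89%. DIP-lambda differed by -0.35 ± 0.11 on the log2 scale (edgeR FDR 0.388). The RNA2 libraries lay wholly below those of RNA1 for 2 members (3.77%), DIP-lambda and DIP-delta, where they did so for 9.61% of all genes. They lay wholly above for 5 members (9.43%), where they did so for 11.3% of all genes. The next 4 members by p were all higher in RNA2. DIP-gamma had 62.9 and 61.0 CPM in RNA2, against 54.9, 54.9 and 57.4 CPM in RNA1, and side-III had 117.2 and 115.1 CPM in RNA2, against 102.9, 110.7 and 104.8 CPM in RNA1. The libraries of the 2 knockdowns did not overlap for either gene, with log2 differences of 0.15 ± 0.08 (FDR 0.705) and 0.13 ± 0.07 (FDR 0.721). dpr5 had 31.0 and 25.0 CPM in RNA2, against 23.1, 24.6 and 24.6 CPM in RNA1, a log2 difference of 0.22 ± 0.11 (FDR 0.701) that rested mainly on RNA2 replicate 1. DIP-kappa differed by 0.15 ± 0.09 (FDR 0.765). For 51 of 53 members the 95% interval of this contrast lay within 1.5-fold, the exceptions being DIP-lambda and DIP-iota.

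Small negative differences were common among the members. Log2 differences from control were negative for 38 of 53 members in RNA1 (71.7%), where 48.6% of all tested genes had a negative value, and for 37 in RNA2 (69.8%), where 48.2% did. By family the negative values in RNA1 were 14 of 21 dpr, 10 of 11 DIP, 8 of 13 beat and 6 of 8 side genes, and in RNA2 they were 14, 9, 9 and 5. The median log2 difference of the DIP genes was -0.19 in RNA1 and -0.23 in RNA2, where the median of all tested genes was 0.0069 and 0.0097. Over the alternatives run it stayed between -0.21 and -0.12 in RNA1 and between -0.31 and -0.15 in RNA2. The dpr median was -0.07 in RNA1, and ran from -0.13 (without RNA1 replicate 2) to -0.02 (without RNA1 replicate 3), and it was -0.07 in RNA2, from -0.13 (with the replicate block) to -0.02 (without RNA2 replicate 1). The side median was -0.08 in RNA1, from -0.13 (without control replicate 3) to -0.02 (without RNA1 replicate 3), and -0.04 in RNA2, from -0.09 (without control replicate 3) to -0.0073 (with library totals). That of beat was -0.03 in RNA1, and 0.01 with library totals in place of TMM and 0.03 without RNA1 replicate 3. In RNA2 the beat median was -0.04, and ran from -0.15 without RNA2 replicate 2 to -0.0027 with library totals. Library totals also raised the median of all tested genes, to 0.0465 in RNA1 and 0.0464 in RNA2. Every family median under that scaling stayed below these values, that of beat in RNA1 included. Without RNA1 replicate 3 the median of all tested genes in RNA1 was 0.0083, below the beat median of that run.

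Counts of members whose libraries did not overlap showed a similar picture, and moved with the scaling. In RNA1, 15 of 53 members (28.3%) were lower in every library than in every control, where 16.6% of all genes were, and 1 was higher, where 17% were. In RNA2, 17 members (32.1%) were lower, where 18.5% of all genes were, and 5 were higher (beat-Vb, dpr21, dpr4, dpr11 and dpr3), where 20.4% were. In all 5 knockdown libraries 12 members (22.6%) were lower than every control, where 10.7% of all genes were, and 1 was higher, where 10.7% were. The 12 were DIP-epsilon, DIP-zeta, DIP-eta, DIP-delta, beat-IIIc, beat-Ic, dpr10, dpr15, dpr2, side-VIII, side-II and side-III. With library totals in place of TMM only 5 members (9.43%) were lower in all 5, where 7.87% of all genes were, and 4 were higher, where 14.5% were. Under that scaling RNA1 had 9 lower and 5 higher (13% and 21.2% of all genes) and RNA2 had 12 lower and 8 higher (14.6% and 26.5%). Without RNA1 replicate 3, RNA1 had 16 lower and 8 higher (22.9% and 23.1% of all genes), and the remaining 4 knockdown libraries had 12 lower and 4 higher (12.6% and 12.7%).

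The summed CPM of the DIP genes was 389.1, 406.9 and 360.9 in RNA1 and 372.3 and 407.9 in RNA2, against 469.5, 448.9 and 447.9 in control. All 5 knockdown sums lay below the 3 control sums, and the means were 84.7% of control in RNA1 and 85.7% in RNA2. The summed CPM of the dpr genes was 1726, 1688 and 1471 in RNA1 and 1616 and 1652 in RNA2, against 1732, 1635 and 1636 in control, which overlapped. The beat sums (680.5 to 812.9 in RNA1 and 706.5 to 761.9 in RNA2, against 749.6 to 812.2 in control) overlapped as well. The side sums lay at 891.9 to 938.2 in RNA1 and 920.7 to 924.4 in RNA2, just below 939.9 to 996.5 in control. No test was made on these sums.

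RNA1 replicate 3, the shallowest library, had the lowest values of dpr, beat and side. The median log2 difference of the 53 members from the control mean, on log2(CPM + 0.5), was 0.0087, -0.02 and -0.20 in the 3 RNA1 libraries and -0.11 and -0.04 in the RNA2 libraries. For the DIP genes alone it was -0.11, -0.11 and -0.22 in RNA1 and -0.29 and -0.14 in RNA2. The list of 6 neuronal markers (elav, nSyb, Syt1, brp, Appl and fne) moved with the members in RNA1 replicate 3, with medians of 0.11, 0.03 and -0.17 in RNA1 and -0.08 and 0.03 in RNA2, against 0.11, -0.06 and -0.05 in control. Its summed CPM was 5000 to 6165 in RNA1 and 5517 to 5770 in RNA2, against 5670 to 6257 in control, and 0 of 6 markers passed in either knockdown by edgeR, DESeq2 or limma-voom (0 in RNA1 and 1 lower in RNA2 at an unadjusted p under 0.05). The 6 glial markers summed to 2441 to 2708 CPM in RNA1 and 2225 to 2518 CPM in RNA2, against 2633 to 2809 CPM in control. Of these, 1 of 6, wrapper, fell in each knockdown, where 5.25% of all tested genes fell in RNA1 and 2.02% in RNA2. At an unadjusted p under 0.05, 2 glial markers were lower in RNA1 and 3 in RNA2 (13.1% and 9.86% of all genes). Their medians were -0.26, -0.09 and -0.13 in RNA1 and -0.36 and -0.20 in RNA2, against 0.05, 0.03 and -0.07 in control. The glial and DIP medians were thus both negative in all 5 knockdown libraries, as were those of the side genes and of other neuronal adhesion genes. In control the DIP medians were 0.05, -0.03 and -0.04.

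**Figure D4:**
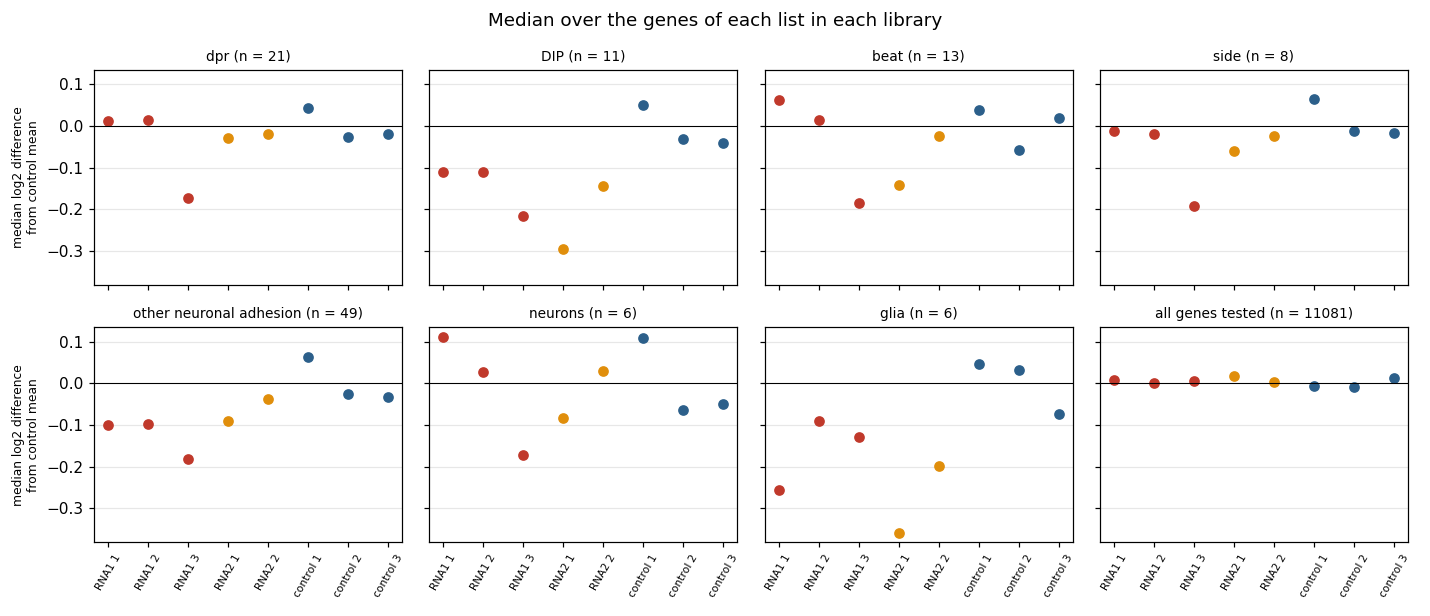
Median log2 difference from the control mean, on log2(CPM + 0.5), in each library for the DIP, dpr, beat and side families, other neuronal adhesion genes, neuronal markers, glial markers and all tested genes, in the order RNA1, RNA2, control. In all 5 knockdown libraries the median is negative for DIP (-0.11 to -0.29), and also for glial markers (-0.09 to -0.36), other neuronal adhesion genes (-0.04 to -0.18) and side (-0.01 to -0.19), and RNA1 replicate 3 is low for every family and for the neuronal markers (-0.17). The beat median over the 3 RNA1 libraries changes sign, to 0.01, when libraries are scaled by their totals, where the median of all tested genes moves to 0.0465.

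Markers of some other tissues differed between the groups in the same libraries. The 6 photoreceptor markers had 0 calls in either knockdown. The 4 muscle markers had median log2 differences of 0.03 in RNA1 and -0.05 in RNA2. Of these, Act88F rose in both knockdowns, whereas Mhc differed by -0.27 in RNA1 (edgeR FDR 0.112). Over all tested genes, 5.01% rose in RNA1 and 1.76% in RNA2. The 4 hemocyte markers summed to 101.4, 177.5 and 113.9 CPM in RNA1 and 146.2 and 120.4 CPM in RNA2, against 68.3, 52.2 and 57.1 CPM in control. Of these, 4 of 4 rose in RNA1 and 2 of 4 in RNA2. Of the 4 gut markers, 3 rose in RNA1 and 2 in RNA2, and Jon65Aiv reached 64.2 CPM in RNA1 replicate 3 while it was under 1 CPM in every other library. The 4 fat body markers summed to 1761 to 2665 CPM in RNA1 and 1903 to 2770 CPM in RNA2, against 1312 to 1686 CPM in control, with median log2 differences of 1.25 in RNA1 and 1.182 in RNA2. Of these, edgeR called 1 higher in RNA1, bmm, and 0 in RNA2, DESeq2 called 3 and 2, limma-voom called 2 and 1, and 4 in RNA1 and 3 in RNA2 had an unadjusted p under 0.05. Of 3 germline and ovary markers found in the table, bam was at or near 0 in all libraries. Cp38, an eggshell gene of the ovary and not of germ cells, made up most of their control sum, at 4.59, 8.43 and 8.14 CPM. The list summed to 0.852 to 1.28 CPM in RNA1 and 0.418 to 1.56 CPM in RNA2, against 5.996 to 9.19 CPM in control. Cp38 fell in RNA1 (edgeR FDR 0.0117) and vas fell in RNA2 (FDR 0.0344), where 5.25% and 2.02% of all tested genes fell. The part of any of these markers, or of the neuronal and glial ones, in the values of the members was not tested.

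Members that lie next to one another in the genome did not all show alike values. There were 11 pairs of members less than 150 kb apart, and 37 of the 54 members were on chromosome arms 3R (21) and 2L (16). beat-Ic (2L, 16000291 to 16041703) lies 8.26 kb from beat-Ia and 37.9 kb from beat-Ib. In RNA1 beat-Ic differed from control by -0.35 on the log2 scale, whereas beat-Ia and beat-Ib differed by -0.03 and 0.04, and in RNA2 the values were -0.34, -0.01 and -0.04. The intervals of beat-Ia and beat-Ib lay within 1.5-fold in both. DIP-eta and DIP-theta, 8.34 kb apart on 2L, differed by -0.23 and -0.15 in RNA1 and by -0.33 and -0.15 in RNA2. dpr6 and dpr10, both ligands of DIP-alpha and 8.09 kb apart on 3L, differed by -0.15 each in RNA1 and by -0.12 and -0.17 in RNA2. The members were long genes, with a median span of 36.1 kb (3.74 to 379.1 kb), where the median tested gene spanned 2.62 kb.

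The same pairs can be read by their log2 differences from control in RNA1. dpr13 (-0.15) stood beside DIP-epsilon (-0.49) and DIP-zeta (-0.38), and dpr12 (-0.0040) beside DIP-delta (-0.19). dpr11 (0.03), dpr15 (-0.18), dpr16 (-0.12) and dpr17 (-0.11) stood beside DIP-gamma (-0.09). DIP-alpha (-0.20) stood beside dpr6 (-0.15) and dpr10 (-0.15), and DIP-beta (-0.16) beside dpr8 (-0.07) and dpr9 (-0.20). beat-VI (-0.11) stood beside side-II (-0.23), and beat-Vb (0.21) beside side-VI (-0.09). No difference between partners was tested.

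cDIP, a leucine-rich repeat protein that is known to bind many dpr and DIP proteins and is no member by name, had 12.2, 17.8 and 15.7 CPM in RNA1 and 18.5 and 15.9 CPM in RNA2, against 11.4, 13.3 and 14.7 CPM in control. RNA1 overlapped control and RNA2 lay above it, with log2 differences of 0.21 ± 0.15 (edgeR FDR 0.404) in RNA1 and 0.39 ± 0.17 (FDR 0.248) in RNA2.

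Other neuronal adhesion genes were compared as a list of 51 entries, of which 49 were found and tested. In RNA1, 5 of the 49 fell and 1 rose, where 5.25% of all tested genes fell and 5.01% rose, and the median log2 difference was -0.14. In RNA1 an unadjusted p under 0.05 gave 19 of 49 lower and 2 higher, where 13.1% and 13.7% of all genes were. DESeq2 gave 12 of 49 lower and 1 higher (8.27% and 7.13% of all genes it tested). limma-voom gave 5 lower and 0 higher (5.38% and 4.87%). In RNA2 edgeR called 0 in either direction (2.02% lower and 1.76% higher over all genes), with a median of -0.06. In RNA2 an unadjusted p under 0.05 gave 8 of 49 lower and 2 higher (9.86% and 8.58% of all genes). DESeq2 gave 3 lower and 0 higher (4.66% and 3.04%), and limma-voom gave 0 (2.07% and 1.67%). Among those that fell in RNA1, Neurotactin (Nrt) had 51.5, 49.8 and 44.2 CPM in RNA1 and 62.7 and 60.3 CPM in RNA2, against 69.0, 68.5 and 66.4 CPM in control, a log2 difference of -0.49 ± 0.07 in RNA1 (edgeR FDR 0.0047). Its secreted ligand Amalgam (Ama) was the gene that rose, at 7.80, 3.36 and 2.64 CPM in RNA1 and 2.92 and 3.66 CPM in RNA2, against 1.43, 1.798 and 1.71 CPM in control, a log2 difference of 1.48 ± 0.38 in RNA1 (FDR 0.0435). limma-voom did not call Ama. Both genes had RNA1 libraries that did not overlap control, and RNA1 replicate 1 of Ama stood far above the other libraries. The other genes that fell were Nrg, sns, caps and fipi, by 0.27 to 0.38 on the log2 scale.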

How the data were processed

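Polyadenylated RNA of 8 head samples was sequenced from stranded libraries, per the labels' protocols. The deposited values are the authors' raw read counts for each gene, whole numbers that were not normalized. The submitters' processing notes name bcl2fastq 2.17, cutadapt 1.18, FastQC 0.11.8, STAR 2.6.1, SAMtools 1.8 and DESeq2 1.24.0, and the build BDGP6. No source used here gives the counting tool, its strand setting or the annotation release. Reads of the 9 members that share exon bases with another gene may therefore be uncertain.

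Of 17676 identifiers, 17548 were matched to a symbol. Coordinates and exon lengths come from an Ensembl annotation of BDGP6. The analysis used edgeR 4.0.16 under R 4.3.3. The filter was filterByExpr (minimum count 10, minimum total 15), libraries were TMM-scaled, and one robust quasi-likelihood model with a mean per group was fitted to all 8 libraries. FDR is the Benjamini-Hochberg value over 11081 genes, and rose or fell is written only at an FDR under 0.05. The biological coefficient of variation was 0.143. CPM and RPKM were computed here from the deposited counts. The SE is the size of the log2 fold change over the root of its F statistic. Alternatives were DESeq2 1.42.0, limma-voom (limma 3.58.1), other scalings and filters, each library left out in turn and a replicate block. Within groups no libraries agreed within sampling noise, with chi-square per degree of freedom of 23.1 to 68.3, so each counted as 1 replicate. The procedure was tested on simulated data.

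Members and lists were chosen with earlier results of these data known. Values per library are given for members called in any contrast, the 3 most abundant per family, the 5 with the lowest p per contrast, FBXO11 and cDIP. DIP-eta, beat-IIIc, beat-Vb, side-II, dpr13 and the other genes named beyond these were chosen after their values were seen. A count of 3 as floor covers counting error only. The counts of members whose libraries did not overlap, with library totals and without RNA1 replicate 3, were alternatives chosen after seeing the data.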

Additional observations from a re-analysis of the deposited data

How the results depend on the processing

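FBXO11 kept its direction and its call in every alternative run. In RNA1 against control, 2 members were called lower by edgeR with TMM, 1 with library totals, 4 with DESeq2 and 1 with the replicate number as a block. Over all genes the numbers called lower moved too, at 582, 487, 867 and 429 in the same settings. With a control or RNA1 library left out, 0 to 2 members and 243 to 506 of all genes were lower. In RNA2 against control edgeR called 0 members lower and DESeq2 called 4, where they called 224 and 530 of all genes lower. With a control or RNA1 library left out, 0 to 1 members and 97 to 290 of all genes were lower. This range does not include the runs that left a single RNA2 library, so it does not measure how the RNA2 counts depend on the RNA2 libraries. No member was called higher under any alternative. With a library left out, the log2 difference between RNA2 and RNA1 ran from -0.061 (without RNA2 replicate 2) to 0.26 for DIP-epsilon, 0.11 with all libraries, and from -0.11 to 0.069 (without RNA1 replicate 2) for DIP-zeta, -0.03 with all libraries. Neither sign change passed the test. The replicate numbers did not pair the samples: deviations of same-numbered libraries correlated at -0.04, -0.08 and -0.03 between RNA1 and control, at 0.04 and 0.16 between RNA2 and control, and at -0.23 and -0.16 between RNA2 and RNA1. With the block, DIP-zeta in RNA1 had an FDR of 0.0557 and DIP-epsilon stayed under the threshold. The cause of these changes was not tested. With 2 RNA2 libraries, which carry different genotype entries, a count of 0 does not show that levels were equal.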
